A study of Oryza sativa with 4 samples.

Results

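The genes that make and break down abscisic acid in rice were followed in transgenic line 40 and in the wild type. The set held 6 genes, chosen by locus name out of 52795 loci with probes on the array: the synthesis genes NCED3 (LOC_Os03g44380), NCED4 (LOC_Os07g05940) and NCED5 (LOC_Os12g42280), and the breakdown genes ABA8OX1 (LOC_Os02g47470), ABA8OX2 (LOC_Os08g36860) and ABA8OX3 (LOC_Os09g28390). Each gene had 1 probe, printed as 1 spot. Line 40 is a transgenic Nipponbare line (japonica rice) that overexpresses LOC_Os02g43330, a class I homeodomain-leucine zipper transcription factor gene also named HOX24. It was compared with wild type Nipponbare. Both were grown in soil in a greenhouse under natural light and temperature and taken whole as seedlings at 14 days, with 2 biological replicates of each genotype (n = 2 arrays each). The promoter that drives the transgene is not given in the sources used here. Only 1 transgenic line was measured, so an effect of the overexpressed gene and another property of that line cannot be told apart.

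Abscisic acid is the plant hormone that closes stomata and slows growth and germination when water is short. It is made from carotenoids in plastids. The NCED enzymes (epoxycarotenoid dioxygenases) cut the carotenoid chain, which is the committed step and usually the slowest one. The ABA8OX enzymes are cytochrome P450 hydroxylases of the CYP707A family that turn the hormone into phaseic acid, its main route of breakdown. Abscisic acid itself is known to switch on breakdown genes, so synthesis and breakdown transcripts often move together. Both steps are encoded by small gene families whose members differ in tissue and in response to stress.

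The assay was a 1-colour array read with the dye Cy3 on total RNA. The values given first are processed signals, a linear spot intensity after background subtraction. Normalized values are log2 of that signal minus log2 of the array's 75th percentile signal, so 0 marks the 75th percentile. The transgene was seen in both arrays of line 40: HOX24 had normalized values of 9.15 and 9.35 in line 40, against 1.98 and 2.12 in the wild type (log2 difference 7.20, SE 0.16, limma adjusted p = 0.00105). Of 36902 loci tested, 766 passed an adjusted p of 0.05, which is 2.08% of them, with 343 higher (0.929%) and 423 lower (1.15%). Of 8 green leaf markers, 7 lay above the 75th percentile on all 4 arrays (CAB1R, a light-harvesting protein gene, lay at -0.56 and -0.44 in line 40, against -0.45 and -0.37 in the wild type), and 3 rose (RBCS, a Rubisco small subunit gene, 1.44; LHCB, a light-harvesting protein gene, 1.38; PSBO, a subunit gene of the oxygen-evolving complex, 1.12) while none fell. All 3 calls were lost with quantile normalization and without the filter on dim probes (limma adjusted p from 0.0568 to 0.0890). Those of LHCB and PSBO were also lost with cyclic loess. Calls were lost as well with 1 array left out, which leaves 1 array in a group. The list's median difference then lay between 0.64 and 0.76, against 0.70 with all 4 arrays. The list's summed level, in multiples of the 75th percentile signal, was 3154 to 3237 in line 40 and 2469 to 2862 in the wild type, with none of the 8 at 0. Most of that sum came from the green leaf markers RCA and CAB2R, which were not called. Their log2 differences were 0.09 and 0.18, or -0.35 and -0.25 with cyclic loess. Of 11 root markers, 10 were tested and none passed, with a median log2 difference of -0.14, 4 above 0 and 6 below. The median was 0.01 with median scaling and 0.25 without line 40 replicate 2. Their summed level was 210 to 225 in line 40 and 138 to 161 in the wild type, most of it from RCC3, a gene known from roots (7.33 and 7.35 in line 40, against 6.74 and 6.97 in the wild type). The list's median normalized value overlapped between the genotypes, at 1.76 and 0.56 in line 40, against 1.16 and 1.44 in the wild type. The iron transporter gene IRT1 was the marker not tested. The root markers with the smallest adjusted p were the ammonium transporter gene AMT1-2 (-1.36) and the aquaporin genes PIP2-5 (1.14) and PIP2-3 (1.19). All 3 passed with median scaling, normexp background correction or limma-trend, a variance prior that follows the signal (limma adjusted p from 0.0104 to 0.0304), as did AMT1-2 without wild type replicate 2 (limma adjusted p = 0.0380). PSAF, a photosystem I subunit gene among the green leaf markers, also passed under those 3 settings (limma adjusted p from 0.0222 to 0.0388). The part that these shifts of tissue markers have in the results below was not tested. In whole seedlings, fewer cells of a type and less RNA per cell cannot be told apart.

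None of the 5 measurable genes of the set passed the test. All 5 had a higher mean in line 40, against 43.7% of all tested loci. The largest difference was that of ABA8OX3, at 1.57-fold, followed by NCED3 at 1.45-fold and NCED4 at 1.38-fold. ABA8OX2 lay at 1.18-fold and NCED5 at 1.06-fold. ABA8OX1 was not well above background on any of the 4 arrays. Before adjustment, limma's p lay under 0.05 for 2 of the 5, NCED3 and ABA8OX3, against 24.9% of all tested loci. In 4 of the 5 both line 40 arrays lay above both wild type arrays, and in none below. Such a separation was found in 59.4% of all tested loci, upward in 25.1% and downward in 34.3%, so it is frequent in this comparison. With 2 arrays against 2, an exact permutation test of a single gene cannot go below p = 0.333, so the tests rest on limma's spread shared across loci.

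**Figure D1:**
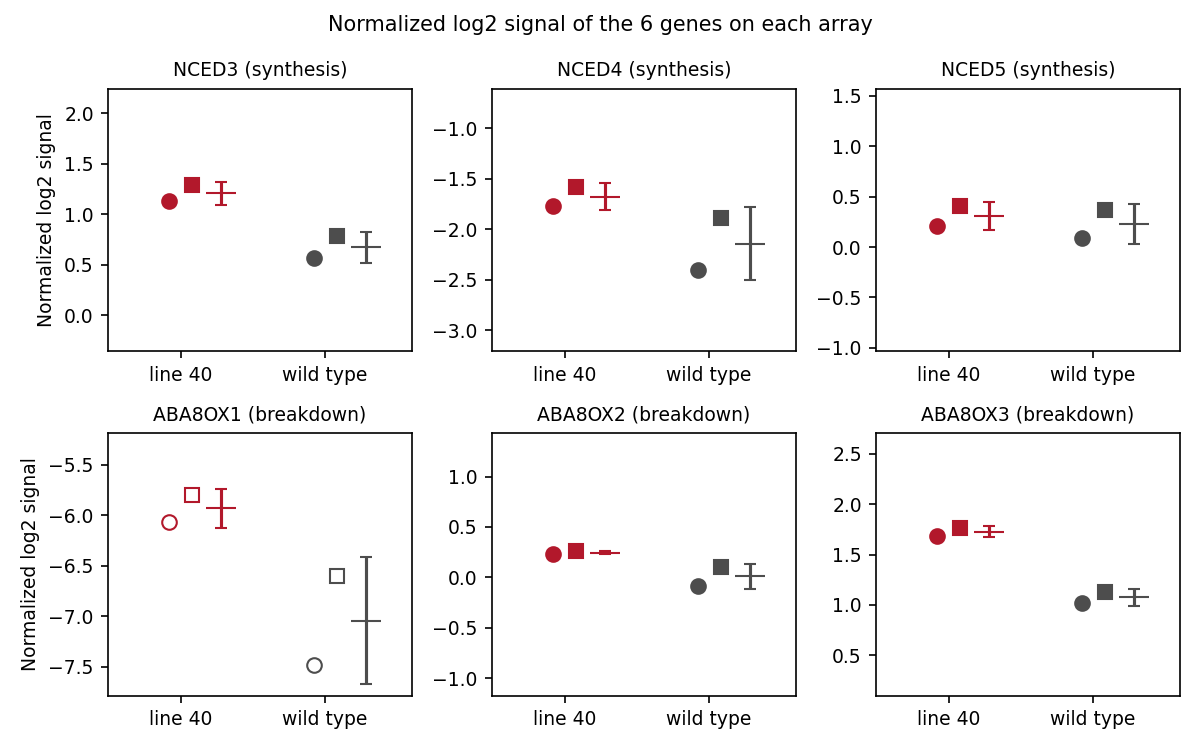
Normalized log2 signal (y axis, each panel spanning the same number of log2 units) of each gene on the 2 line 40 arrays (red, left) and the 2 wild type arrays (grey, right). Circles are replicate 1 and squares replicate 2, open symbols are spots not well above background, and bars are the mean ± SD. The line 40 arrays lie above the wild type arrays for NCED3, NCED4, ABA8OX2 and ABA8OX3, the groups overlap for NCED5, and all 4 ABA8OX1 spots are open.

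Among the synthesis genes, NCED3, a dioxygenase gene known to be induced by water deficit in rice, had the largest difference. Its processed signal was 883 and 1052 in line 40, against 543 and 840 in the wild type. After normalization the values were 1.13 and 1.29 in line 40, against 0.57 and 0.78 in the wild type. Both line 40 arrays were above both wild type arrays, and the closest pair of arrays was 0.35 apart. The means were 1.21 ± 0.11 in line 40 and 0.68 ± 0.15 in the wild type (SD, n = 2 each). The log2 difference was 0.53 (SE 0.16, 95% interval 0.11 to 0.96) and did not pass the test (limma adjusted p = 0.146).

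NCED4, a second dioxygenase gene, gave a dim but measurable spot on all 4 arrays. Its processed signal was 118 and 144 in line 40, against 69.4 and 132 in the wild type, so the groups overlapped before scaling. The normalized values were -1.78 and -1.58 in line 40, against -2.40 and -1.89 in the wild type. After normalization the groups did not overlap, but the 2 wild type arrays were 0.51 apart, which is more than the 0.47 between the group means. The means were -1.68 ± 0.14 in line 40 and -2.15 ± 0.36 in the wild type (SD, n = 2 each). The test did not call it (log2 difference 0.47, SE 0.22, 95% interval -0.11 to 1.04, limma adjusted p = 0.268). The difference depended on the wild type replicate used, at 0.21 with replicate 1 left out and 0.72 with replicate 2 left out. It was 0.27 after normexp, which added an offset of 50 to the signals.

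NCED5, the remaining synthesis gene of the set, did not separate the groups. Its processed signal was 465 and 570 in line 40, against 390 and 628 in the wild type. The normalized values were 0.21 and 0.40 in line 40, against 0.09 and 0.36 in the wild type. The wild type value of replicate 2 lay between the line 40 values. The log2 difference was 0.08 (SE 0.18, 95% interval -0.38 to 0.54, limma adjusted p = 0.811). That interval holds changes from 0.769-fold to 1.45-fold, so the data do not show that NCED5 was equal in both genotypes. The sign turned with 1 array left out, to -0.06 without wild type replicate 1 and -0.02 without line 40 replicate 2.

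Among the breakdown genes, ABA8OX3 had the largest difference of the whole set, with close replicates in both genotypes. This hydroxylase gene gave processed signals of 1300 and 1466 in line 40, against 742 and 1071 in the wild type. The normalized values were 1.69 and 1.77 in line 40, against 1.02 and 1.13 in the wild type. The line 40 arrays differed by 0.08 and the wild type arrays by 0.12, while the closest pair across genotypes was 0.55 apart. The means were 1.73 ± 0.06 in line 40 and 1.08 ± 0.08 in the wild type (SD, n = 2 each). The log2 difference of 0.65 (SE 0.15, 95% interval 0.27 to 1.03) missed the threshold (limma adjusted p = 0.0951), and 7.47% of all tested loci had a smaller p. With limma-trend (chosen after the data were seen) the same difference passed (limma-trend adjusted p = 0.0347). That fit called 5.87% of all tested loci and no other member of the set. Over all 14 alternatives the difference lay between 0.59 and 0.80, with adjusted p from 0.0347 to 0.363.

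ABA8OX2, another hydroxylase gene of the family, differed less. Its processed signal was 475 and 516 in line 40, against 347 and 523 in the wild type, so the groups overlapped before scaling. After normalization the values were 0.23 and 0.26 in line 40, against -0.08 and 0.10 in the wild type, and the groups no longer overlapped. The line 40 arrays were 0.02 apart and the wild type arrays 0.18 apart. The log2 difference was 0.24 (SE 0.15, 95% interval -0.16 to 0.63), and it did not pass (limma adjusted p = 0.383). The difference was 0.15 without wild type replicate 1 and 0.38 after scaling on the median.

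The third hydroxylase gene, ABA8OX1, could not be compared. Its processed signals were 6.02 and 7.76 in line 40, against 2.04 and 5.03 in the wild type. Feature Extraction, the scanner software, put the error of these signals at 2.13 and 2.31 in line 40, against 2.05 and 2.24 in the wild type. The lowest signal of any spot well above background was 9.97 to 10.7 on the line 40 arrays and 10.1 to 10.9 on the wild type arrays. All 4 spots of ABA8OX1 lay under these limits, so no fold is given. A transcript level below what this probe can detect may still differ between the genotypes.

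The 3 synthesis genes had a median log2 difference of 0.47 and a range of 0.08 to 0.53. The 2 measured breakdown genes lay at 0.24 and 0.65, with a median of 0.44. The medians moved apart after normexp, at 0.27 for synthesis and 0.46 for breakdown. Normexp added an offset of 50 to the signals, and the synthesis median was the value of NCED4, with processed signals of 69.4 to 144. The part of the offset in this move was not tested. Without wild type replicate 1 the medians lay at 0.21 for synthesis and 0.37 for breakdown. Without wild type replicate 2 synthesis had the higher one, at 0.64 against 0.52. All tested loci had a median of -0.06. With each gene centred on its wild type mean, the synthesis genes averaged 0.27 and 0.45 on the 2 line 40 arrays, against -0.17 and 0.17 on the 2 wild type arrays. The breakdown genes averaged 0.42 and 0.47 on the line 40 arrays, against -0.07 and 0.07 on the wild type arrays. The line 40 averages were above the wild type averages for both synthesis and breakdown. The 2 measured breakdown genes had the tighter replicates. That leaves out ABA8OX1, whose dim wild type spots were 0.89 apart. Breakdown minus synthesis came to 0.15 and 0.02 on the line 40 arrays, against 0.09 and -0.09 on the wild type arrays. These values overlapped, with means of 0.08 ± 0.09 in line 40 and 0 ± 0.13 in the wild type (SD, n = 2 each). The wild type mean is 0 by the centring. A shift of breakdown relative to synthesis was not tested. Gene by gene, the breakdown gene had the larger difference in 4 of 6 pairs: ABA8OX3 exceeded all 3 synthesis genes, by 0.12 to 0.57, whereas ABA8OX2 exceeded NCED5 only. The intervals of all 5 genes overlapped one another. These pair orders depended on the processing. NCED4 exceeded ABA8OX3 with quantile normalization (0.594 against 0.592) and without wild type replicate 2 (0.723 against 0.709). After normexp, ABA8OX2 and NCED4 were nearly level (0.272 and 0.270).

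**Figure D2:**
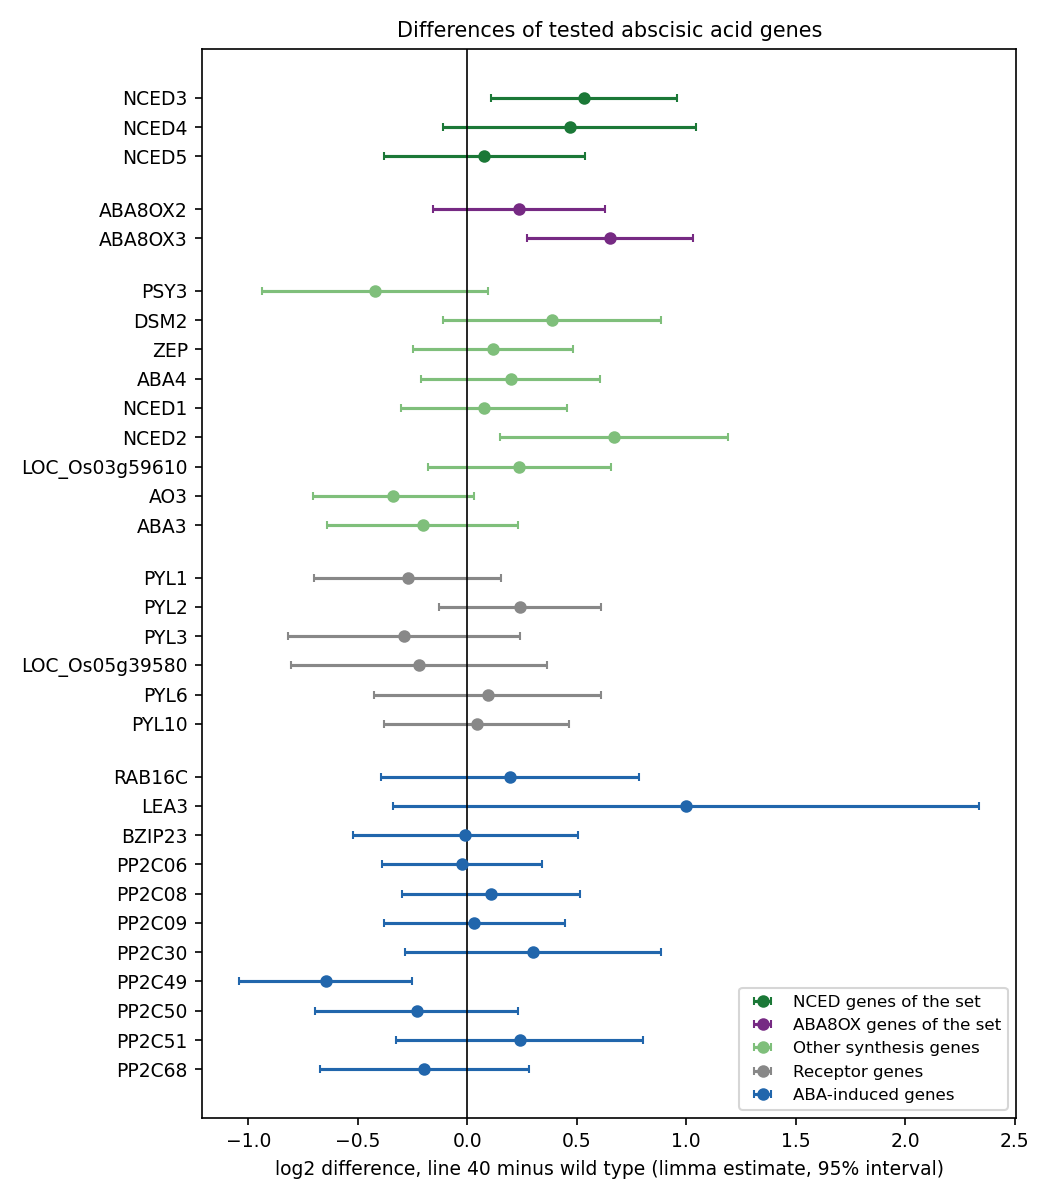
Log2 difference (x axis, line 40 minus wild type) with its 95% limma interval for each tested gene of abscisic acid synthesis, breakdown, perception and response (y axis, one row a gene, coloured by group). No gene shown passed the test. The intervals of NCED3, ABA8OX3 and NCED2 lie above 0 and that of PP2C49 below it, and all others cross 0.

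The order of the replicates was the same in each gene of the set. In all 6 genes, replicate 2 was higher than replicate 1 in line 40 and also in the wild type, after normalization, the dim ABA8OX1 included. This is a count of signs, and some gaps were small. ABA8OX2 replicates in line 40 were 0.02 apart, at processed signals of 475 and 516 with errors of 47.6 and 51.6. The same order in both genotypes was found in 27.4% of all tested loci. As the genes share the same arrays, their values on 1 array are not independent, and the 5 positive differences are not 5 separate observations.

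The other genes of synthesis, given from a list of 9, split in direction and none passed the test. Their median difference was 0.12, with 6 above 0 and 3 below, where NCED1 and ZEP turned negative under quantile normalization and cyclic loess and PSY3 turned positive under quantile normalization. Before adjustment 1 of 9 had an unadjusted limma p under 0.05. That gene was NCED2 (LOC_Os12g24800), a further dioxygenase gene. It had normalized values of 0.08 and 0.44 in line 40, against -0.55 and -0.27 in the wild type. The groups did not overlap, and the difference of 0.67 (SE 0.20, 95% interval 0.15 to 1.19, limma adjusted p = 0.142) was as large as that of ABA8OX3, with wider spacing of the replicates. NCED1 (LOC_Os02g47510), the fifth dioxygenase gene, was nearly level, with 5.40 and 5.44 in line 40, against 5.28 and 5.40 in the wild type. Its difference was 0.08 (SE 0.15, limma adjusted p = 0.773), or -0.24 with quantile normalization and -0.15 with cyclic loess. Across the 5 genes listed as NCED the differences ran from 0.08 to 0.67. All were above 0 except for NCED1 under those 2 scalings and NCED5 with either of 2 arrays left out. Only NCED3 among them had a RefSeq entry under its symbol, so the names of the others rest on the list.

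The 3 genes below 0 belong to the steps around the dioxygenases. The aldehyde oxidase gene AO3 (LOC_Os07g18120), of the family that makes abscisic acid in the last step, had values of -0.18 and -0.24 in line 40, against 0.13 and 0.13 in the wild type. Its difference of -0.34 (SE 0.14) did not pass (limma adjusted p = 0.225). The phytoene synthase gene PSY3 (LOC_Os09g38320), at the entry to carotenoids, was well above background on 1 line 40 array and both wild type arrays. It lay at -0.42 (SE 0.20, limma adjusted p = 0.266), or 0.02 with quantile normalization. ABA3, a molybdenum cofactor gene, lay at -0.20. The other 4 lay between 0.12 and 0.39: DSM2, a carotene hydroxylase gene, ZEP, the zeaxanthin epoxidase gene, ABA4, a gene of the neoxanthin step, and the dehydrogenase locus LOC_Os03g59610.

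The genes that perceive abscisic acid showed no common direction. Of 7 receptor genes of the PYR/PYL family, 6 were tested, with a median of -0.09, 3 above 0 and 3 below. None passed, and none had an unadjusted limma p under 0.05. The largest differences lay at 0.24 for PYL2, -0.27 for PYL1 and -0.29 for PYL3 (limma adjusted p from 0.349 to 0.428). The receptor locus LOC_Os05g39580 lay at -0.22 (SE 0.23, limma adjusted p = 0.580), or 0.02 with cyclic loess and 0.05 without line 40 replicate 2. PYL4 was not tested, as it was well above background on only 1 of the 4 arrays, a wild type one.

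Genes that are themselves switched on by the hormone were likewise uncalled. Of 15 listed, 11 were tested, with a median of 0.03, 6 above 0 and 5 below. The 1 gene with an unadjusted limma p under 0.05 was PP2C49 (LOC_Os05g38290), a clade A protein phosphatase gene of the kind that holds the pathway off. It had -1.44 and -1.25 in line 40, against -0.71 and -0.69 in the wild type. Both line 40 arrays lay below both wild type arrays, but the difference of -0.65 (SE 0.15) did not pass (limma adjusted p = 0.102). PP2C30, another phosphatase gene, lay at 0.30 (SE 0.23, limma adjusted p = 0.454). LEA3 (LOC_Os05g46480), a gene for a late-embryogenesis protein that protects drying cells, had the largest difference, 1.00 (SE 0.52, limma adjusted p = 0.299). It rested on 1 array, line 40 replicate 2. The values were -2.06 and -0.52 in line 40, against -2.46 and -2.12 in the wild type, and the second LEA3 probe gave -2.42 and -0.70 in line 40, against -2.57 and -2.46 in the wild type. The dehydrin genes RAB16A and RAB16D and the SALT gene were not well above background on any array, and RAB16B was on only 1, a line 40 one. RAB16C lay at 0.20 (SE 0.23).

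**Figure D3:**
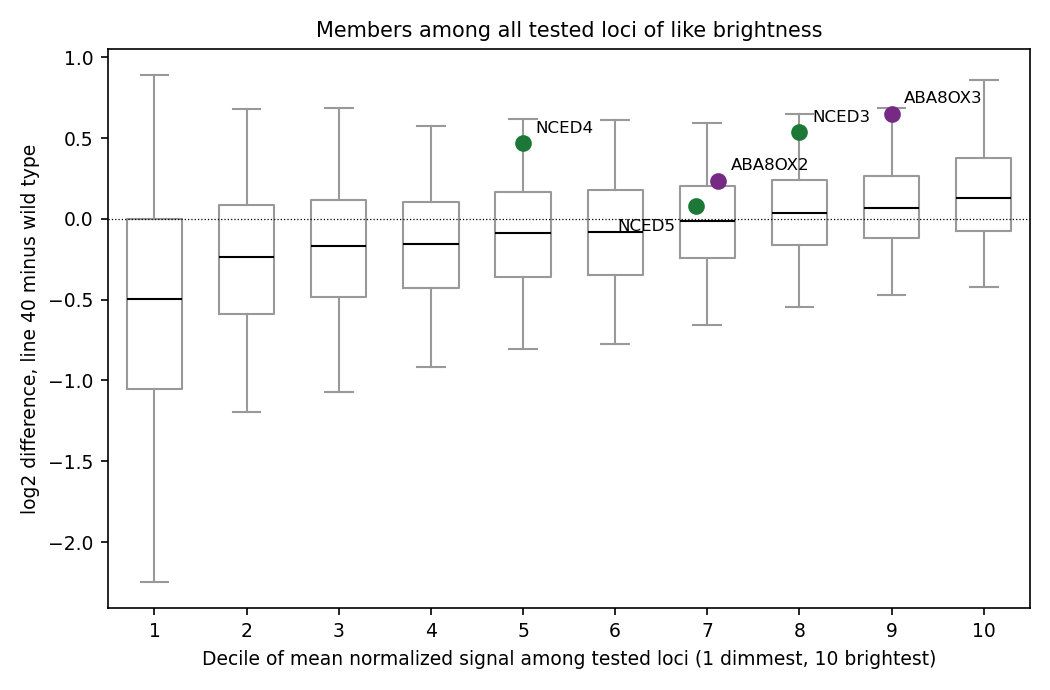
Log2 difference (y axis, line 40 minus wild type) of the 5 measured genes (green for synthesis, purple for breakdown) over all tested loci grouped by mean normalized signal into 10 classes (x axis, dimmest to brightest). Boxes span the 25th to 75th percentile, lines mark the median and whiskers reach the 5th and 95th percentile. The medians climb from -0.50 to 0.13, and NCED3, NCED4, ABA8OX2 and ABA8OX3 lie above the box of their class.

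Differences across the array depended on brightness. The median log2 difference was -0.50 in the dimmest class of tested loci and 0.13 in the brightest. Of the 423 loci that passed the threshold as lower, 270 lay in the dimmest class, as did 48 of the 343 higher ones. Among loci of its own brightness, ABA8OX3 (0.65) lay above the interquartile range, which spanned -0.12 to 0.27. NCED3 (0.53) and NCED4 (0.47) were also above the interquartile range of theirs, -0.16 to 0.24 and -0.36 to 0.17. ABA8OX2 (0.24) was just above and NCED5 (0.08) within the interquartile range of their shared class, -0.24 to 0.20. Each of these genes stayed under the 95th percentile of its class. That limit was 0.68 for ABA8OX3, 0.65 for NCED3, 0.62 for NCED4 and 0.59 for ABA8OX2 and NCED5. Over all tested loci, the difference of ABA8OX3 stood at percentile 94.3, that of NCED3 at 91.7, NCED4 at 89.7, ABA8OX2 at 78.0 and NCED5 at 64.4. These are positions in 1 comparison of 4 arrays, not tests.

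Likeness of pattern was read from the 4 arrays as the root mean square difference of centred log2 values, among the 49 other listed loci that were tested. ABA8OX3 was nearest to PSAF (0.07), and NCED3 to RCC3 (0.05). NCED4 was nearest to DSM2 (0.10), ABA8OX2 to ABA4 (0.03) and NCED5 to PYL10 (0.03). Between 111 and 384 of all tested loci were at least as near, so a pattern over 4 arrays singles out no partner.

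**Figure D4:**
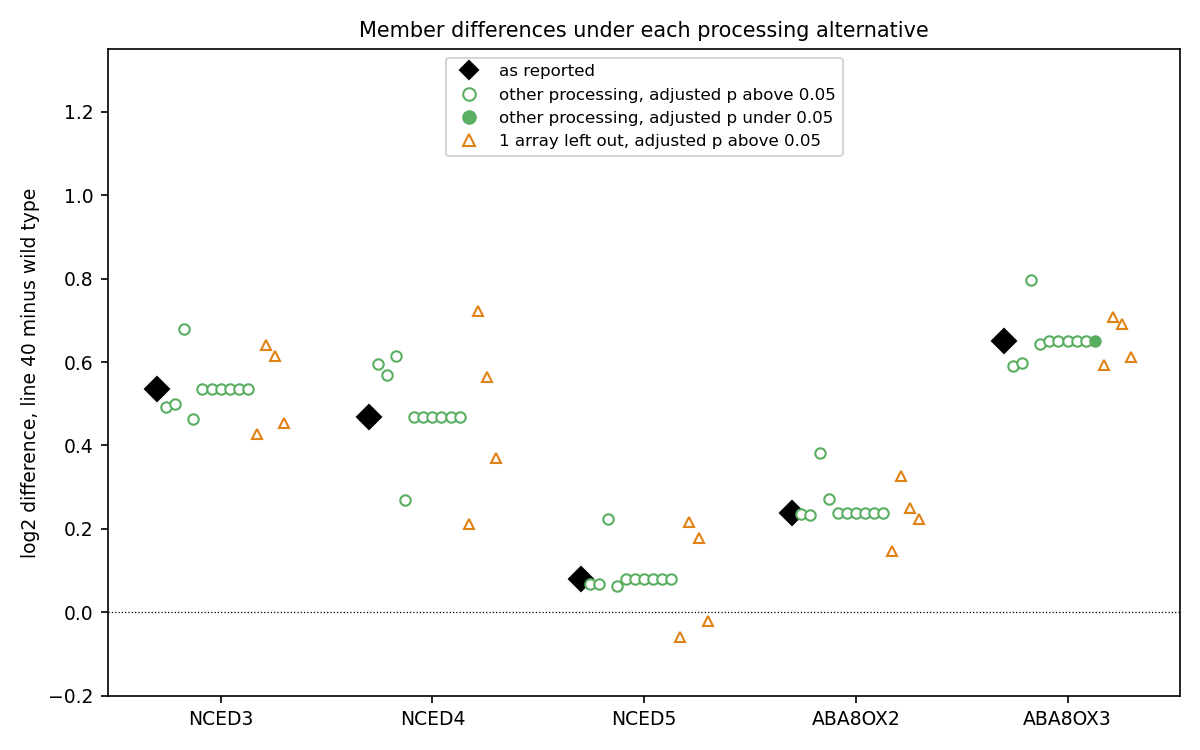
Log2 difference (y axis, line 40 minus wild type) of the 5 measured genes (x axis) as reported (black diamonds), under other processing (green circles) and with 1 array left out (orange triangles). Filled green marks an adjusted p under 0.05, which occurs once, for ABA8OX3 with limma-trend. NCED4 moves most, between 0.21 and 0.72, and NCED5 crosses 0.

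The order of the differences was partly kept across the processing. NCED4 exceeded NCED3 with quantile normalization (0.59 against 0.49), with cyclic loess (0.57 against 0.50) and without wild type replicate 2 (0.72 against 0.64). With quantile normalization and without wild type replicate 2, NCED4 also exceeded ABA8OX3. ABA8OX3 and NCED3 stayed above 0.42 under each of the 14 alternatives, with ranges of 0.59 to 0.80 and 0.43 to 0.68. ABA8OX2 stayed between 0.15 and 0.38. NCED4 ranged from 0.21 to 0.72 and NCED5 from -0.06 to 0.22. Neither NCED3, NCED4, NCED5 nor ABA8OX2 passed under any of them (lowest adjusted p 0.0742, for NCED3 with limma-trend).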

How the data were processed

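The 4 scanner files hold spot intensity on a linear scale, made with Agilent Feature Extraction 10.7.1.1 per the file headers (background subtraction and detrending, no normalization between arrays). The deposited value table held the same intensity for all 62976 spots, to a relative difference under 0.0001. Flags of the software, such as well above background, are the deposited ones. From the intensity a log2 value was derived here: log2 of the processed signal minus the 75th percentile of non-control spots (404 and 431 in line 40, 367 and 488 in the wild type). Control spots (1319) and 32 probes with uneven spots were left out, and repeated spots averaged. Loci entered the test with their brightest probe that cleared the background in each replicate of line 40, of the wild type or of both. Groups were compared with limma 3.58.1 (R 4.3.3), two-sided, with Benjamini-Hochberg adjustment over 36902 loci. The number of arrays limits the precision. All 4 arrays were read from 1 slide.

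The members and lists were chosen with earlier results of these data known. Named were all members, HOX24, and per list the genes past the threshold and the 3 with the smallest adjusted p. Further genes named to complete a list were chosen after their values were seen. Symbols come from the lists: of 57, 35 matched a RefSeq entry (ASM3414082v1) at the locus's chromosome and rough position. Another 20 had no entry (NCED1, NCED2, NCED4 and NCED5 among them) and 2 failed, whose loci are given by identifier. The array design names another build (IRGSP5), so no coordinates are given. Normexp used the median spot signal in place of the mean signal planned, with an offset of 50.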

Additional observations from a re-analysis of the deposited data

How the results depend on the processing

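The count of loci past the threshold (766, with 343 higher and 423 lower) moved most with the processing. It was 406 (251 higher, 155 lower) with quantile normalization, 303 higher and 254 lower with cyclic loess, 2737 (1487 and 1250) with median scaling, 764 higher and 335 lower after normexp, 23 (15 and 8) without the filter on dim probes, 504 (332 and 172) with probes well above background on all 4 arrays, and 2165 (1249 and 916) with limma-trend. Median scaling moved the median of all tested loci from -0.06 to 0.08. With 1 array left out, and the filter set anew, the count ran from 399 (without wild type replicate 1, 74 higher and 325 lower) to 1802 (without wild type replicate 2, 303 and 1499), with higher loci from 74 to 303 and lower loci from 256 to 1499. The members' calls changed once: ABA8OX3 (0.65) passed with limma-trend (adjusted p = 0.0347). With 1 array left out NCED5 ran from -0.0595 to 0.217, and it was below 0 without wild type replicate 1 and without line 40 replicate 2 (-0.0212). The synthesis median was 0.27 after normexp and 0.21 to 0.64 with 1 array left out. The breakdown median was 0.59 with median scaling and 0.65 without the filter, where ABA8OX1 entered. The median of the other synthesis genes was -0.11 with cyclic loess. The green leaf median (0.70) was 0.44 with quantile normalization, 0.47 with cyclic loess and 0.85 with median scaling. The cause was not tested, except that the filters change which loci enter. With the replicate number as a block, the count was 778 (318 higher, 460 lower) and no member's call changed (ABA8OX3 adjusted p = 0.156, NCED3 0.205), while of the 3 green leaf calls that of PSBO was lost (adjusted p = 0.0651). The labels do not say that a number marks a shared batch, and same-numbered deviations correlated at -0.07 across loci, so the numbers are not used as pairs.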
